A study of Arabidopsis thaliana with 23 samples.

Results

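A set of 37 Arabidopsis transcripts was higher after both 6 h and 12 h of induction in the line with inducible SHORT-ROOT (SHR) and in the line with inducible SCARECROW (SCR). They were chosen by measured values: on the log2(signal + 10) scale, the mean of the 2 arrays at 6 h and at 12 h had to exceed the mean at 0 h by at least 0.7 in each line, and the mean signal of the 12 h arrays had to reach 50. The rule left out control probe sets, plastid loci and UGT symbols, which removed 0 probe sets that met the limits. It was met by 37 of 22746 probe sets. In the SHR line 368 probe sets met the limits and in the SCR line 234, so the shared set was 10.1% of the SHR set and 15.8% of the SCR set. These counts were 2.3%, 1.46% and 0.231% of the 15983 probe sets that passed a filter on low values, for the SHR line, the SCR line and both. A single gene was named for 18 of the 37. The annotation used did not list the remaining 19, which are given here by probe set.

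The arrays were Affymetrix ATH1 arrays of roots of seedlings of the Columbia ecotype, 5 days after germination. In the SHR-inducible line and in the SCR-inducible line, seedlings were moved to medium with 1 micromolar dexamethasone (Dex), the steroid that switches on the inducible protein, and were taken at 0, 1, 3, 6 and 12 h with 2 biological replicates each. Their source label is cells sorted by J0571, an enhancer-trap marker of the ground tissue, which is the cortex and the endodermis. A further 3 arrays came from cells labelled as cortex/endodermis initials (CEI), sorted by a CYCD6 marker from seedlings on standard medium without Dex. The protocol text of the samples describes cut roots and no sorting, so the tissue is as the source labels give it. Every time-course array came from Dex medium, and the samples hold no series of times without Dex, so the length of the Dex treatment cannot be told apart from the hours since transfer. The sources used here do not name the promoters of the inducible genes or the number of independent transgenic lines.

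SHR is a GRAS transcription factor that is made in the stele and moves into the neighbouring cell layer, where it enters the nucleus and, with SCR, another GRAS factor, activates their shared targets. In the initial cell this pair switches on the D-type cyclin CYCD6;1, and the cell divides along its length into an inner endodermal and an outer cortical cell. In the endodermis the same factors hold back further movement of SHR and take part in the identity of the layer, whose walls later receive the Casparian strip, a lignin band laid down with the help of peroxidases and dirigent-type proteins.

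The arrays had been scaled to a common level, as the trimmed mean of the signals was between 249.89 and 249.91 on all of them, and the median signal lay between 62.9 and 79.9 over the 23 arrays. Replicates of a group correlated at 0.914 or more (Pearson, across probe sets) except the SCR line at 6 h, at 0.862, where the first array stood apart from the others. Without the first SCR 6 h array 41 probe sets met the rule, of which 29 were among the 37, and without the second 32 did, of which 26 were. When both were left out and the 6 h limit applied to the SHR line alone, 61 did, with all 37 among them. The first 0 h array was also higher than the second in 32 of the 37 transcripts in the SHR line and in 30 in the SCR line, against 53.4% and 47.1% of all tested probe sets. Without the first 0 h array of the SHR line, 80 probe sets met the rule, with all 37 among them. The rule was met under each of the 12 single left-out arrays by 5 transcripts: AT1G05370, Prx37, AT4G11290, SCPL45 and the probe set 255443_at. The annotation given for the probe sets named few usable markers of cell types. The labelled cells could be checked on 2 of 10 endodermis loci, 2 of 3 cortex loci and 2 of 8 epidermis loci, and none of the 10 stele and 4 root cap loci was named. In the SCR line the summed signal of the cortex pair was between 723 and 1158 on the 6 h and 12 h arrays, against 1483 to 2064 on the 0 h arrays, with no overlap, and in the SHR line it was between 609 and 1578, against 477 to 2167. The endodermis pair was between 1122 and 2216 in the SCR line at 6 h and 12 h, against 612 to 1148 at 0 h, and between 556 and 894 in the SHR line, against 193 to 684. Of that pair GSO1, a receptor kinase gene of Casparian strip formation, differed from 0 h at 6 h and 12 h by 1.09 and 0.54 in the SHR line, with 1.05 and 0.87 in the SCR line. The epidermis pair was between 22.9 and 236 over both lines at 6 h and 12 h, against 35.1 to 420.4 at 0 h. The endodermis ranges overlap in both lines, at the low end of the 6 h and 12 h arrays. The summed signal of the cortex pair was lower on all 6 h and 12 h SCR arrays than at 0 h, but its 2 genes differed. In the SCR line CO2 (AT1G62500) differed from 0 h by -4.30 at 6 h and -2.35 at 12 h, and AT1G09750 by 0.26 and -0.27. The part of these markers in the selection was not tested. In such samples more cells of a type and more RNA per cell cannot be told apart.

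The differences from 0 h at 6 h and 12 h chose the transcripts and are described without a test. Their median was 1.80 at 6 h and 1.55 at 12 h in the SHR line, and 1.17 at 6 h and 1.28 at 12 h in the SCR line (log2). Over all 15983 tested probe sets these medians were between -0.11 and 0.02. The smallest of a transcript's 4 differences was 1.89 for AT1G05370, the highest of the 37, and 0.70 for LPR1, the lowest. Just inside the limit lay LPR1, AT4G25390 at 0.71 and 251035_at at 0.72. Just outside lay 266860_at and AT5G66390, the gene of peroxidase 72, at 0.67 each, and AT2G15340 at 0.66. At the signal limit, 263836_at had a mean of 53.3 at 12 h and AT5G28010 57.4. AT1G12010 at 47.5, CLE27 at 47.0 and PRA1.F1 at 45.1 were outside. In the SHR line 29 of the 37 had all 4 arrays of 6 h and 12 h above both 0 h arrays, as did 12.1% of the tested probe sets. In the SCR line it was 31, where the background was 5.93%, and in both lines 23, where it was 0.557%. The selection used these arrays, so the counts describe how far the replicates overlap and nothing more. At 0 h both arrays were below the 40th percentile of their array for 10 transcripts in the SHR line (9.66% of tested probe sets) and for 6 in the SCR line (10.7%), and all 37 passed the filter on low values.

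**Figure D1:**
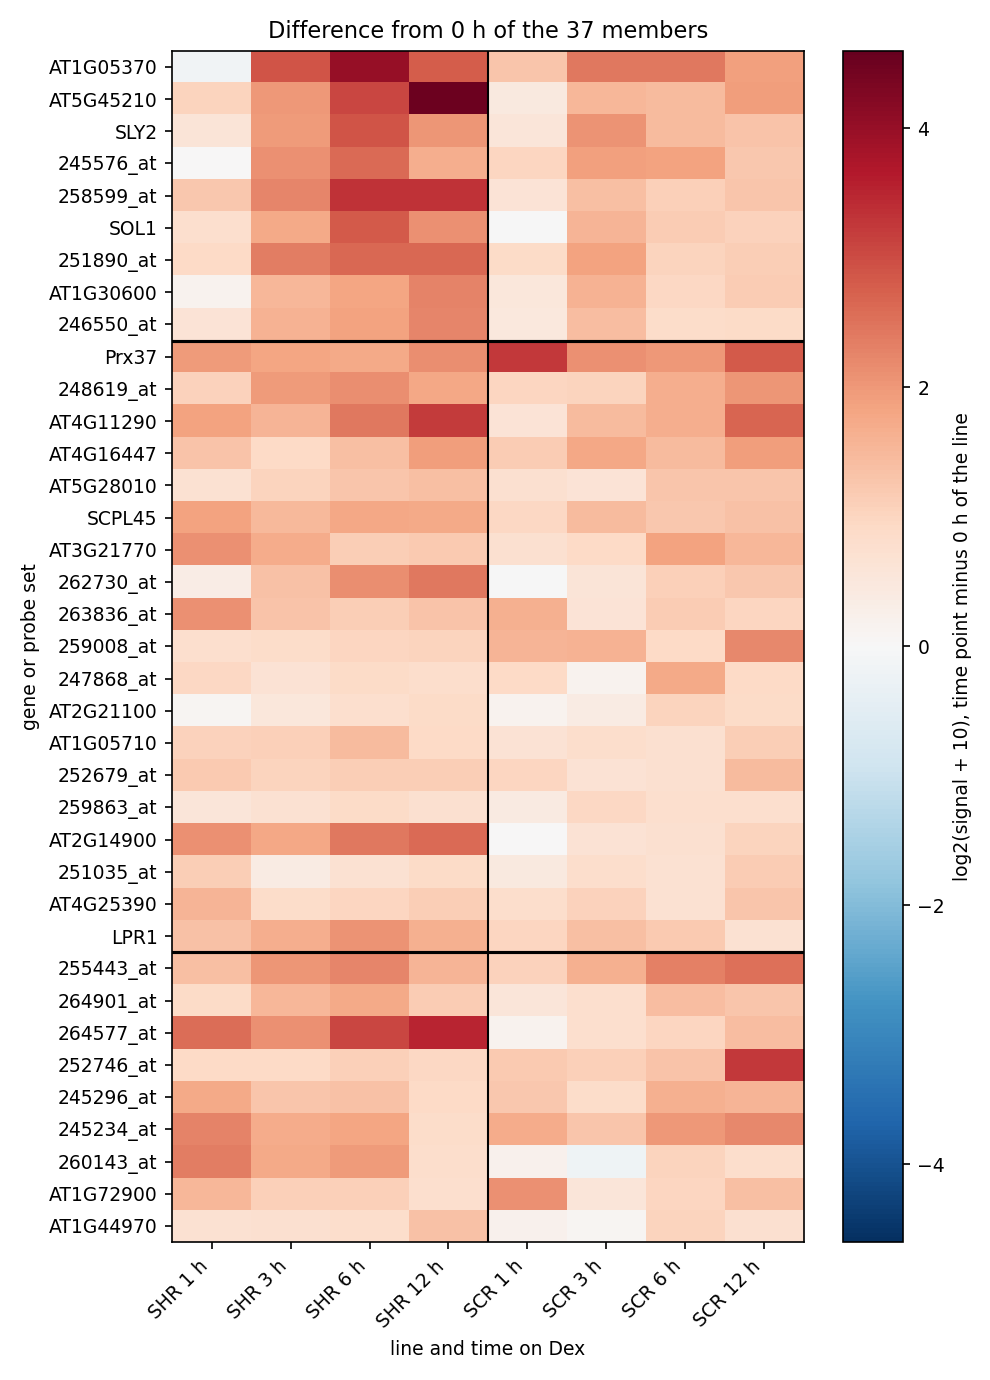
Mean difference from 0 h of each of the 37 transcripts (rows) at 1, 3, 6 and 12 h in the SHR and SCR lines (columns), as a colour on the log2(signal + 10) scale, from 2 arrays per group. Black lines separate the 9 transcripts whose second SCR 6 h array was at least 2-fold higher (top), the 19 within 2-fold, and the 9 whose first array was at least 2-fold higher (bottom); AT1G05370 and SLY2 in the top block are pale at 1 h and dark from 3 h in the SHR line.

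Among the regulators, SLY2, also called SNEEZY, encodes an F-box protein related to SLEEPY1, which marks DELLA repressors of gibberellin signalling for degradation. The 19 transcripts not listed in the annotation could not be matched to a list of 13 loci of the SHR and SCR pathway. Of the 13 loci 5 were named and 4 tested, and SLY2 was the only member among them. In the SHR line its signal was 93.3 and 38.7 at 0 h, 108 and 89.4 at 1 h, 271 and 259 at 3 h, 609 and 448 at 6 h, and 229 and 346 at 12 h. The SCR line had 61.8 and 65.4 at 0 h, 61.8 and 153 at 1 h, 263 and 338 at 3 h, 69.1 and 499 at 6 h, and 159 and 183 at 12 h. From 3 h on every array of both lines lay above the 0 h arrays of its line, and the low first SCR 6 h array was close to them. The mean differences from 0 h were 0.61, 1.95, 2.91 and 2.04 at 1, 3, 6 and 12 h in the SHR line, with 0.55, 2.07, 1.45 and 1.30 in the SCR line (log2). Both 12 h arrays of the SHR line were below both 6 h arrays.

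AT3G22760, listed as SOL1, encodes a TSO1-like protein with a cysteine-rich CXC domain, of a family that binds DNA. In the SHR line its signal was 17.5 and 10.6 at 0 h, 33.4 and 28.9 at 1 h, 101 and 47.8 at 3 h, 203 and 121 at 6 h, and 81.2 and 103 at 12 h. The SCR arrays had 26.7 and 37.5 at 0 h, 21.6 and 44.1 at 1 h, 97.2 and 134 at 3 h, 39.0 and 166 at 6 h, and 103 and 55.9 at 12 h. The SHR line peaked at 6 h, with 12 h below it on both arrays. The 1 h arrays of the SCR line lay on either side of its 0 h arrays. AT1G05710 encodes a basic helix-loop-helix protein, a class of transcription factors. Its differences at 6 h and 12 h were 1.45 and 0.93 in the SHR line, with 0.75 and 1.15 in the SCR line. Its first 0 h array in the SHR line, at 299, lay above both 12 h arrays, at 256 and 254, so the replicates overlap there. AT2G14900 encodes a protein of the gibberellin-regulated GASA family of small secreted peptides. It was at 626 and 312 at 12 h, against 73.0 and 57.8 at 0 h, in the SHR line. The SCR line had 832 and 922 at 12 h, against 564 and 315 at 0 h, so its 0 h level was already close to the 12 h level of the SHR line. Its difference at 12 h was 2.59 in the SHR line, with 1.04 in the SCR line.

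**Figure D2:**
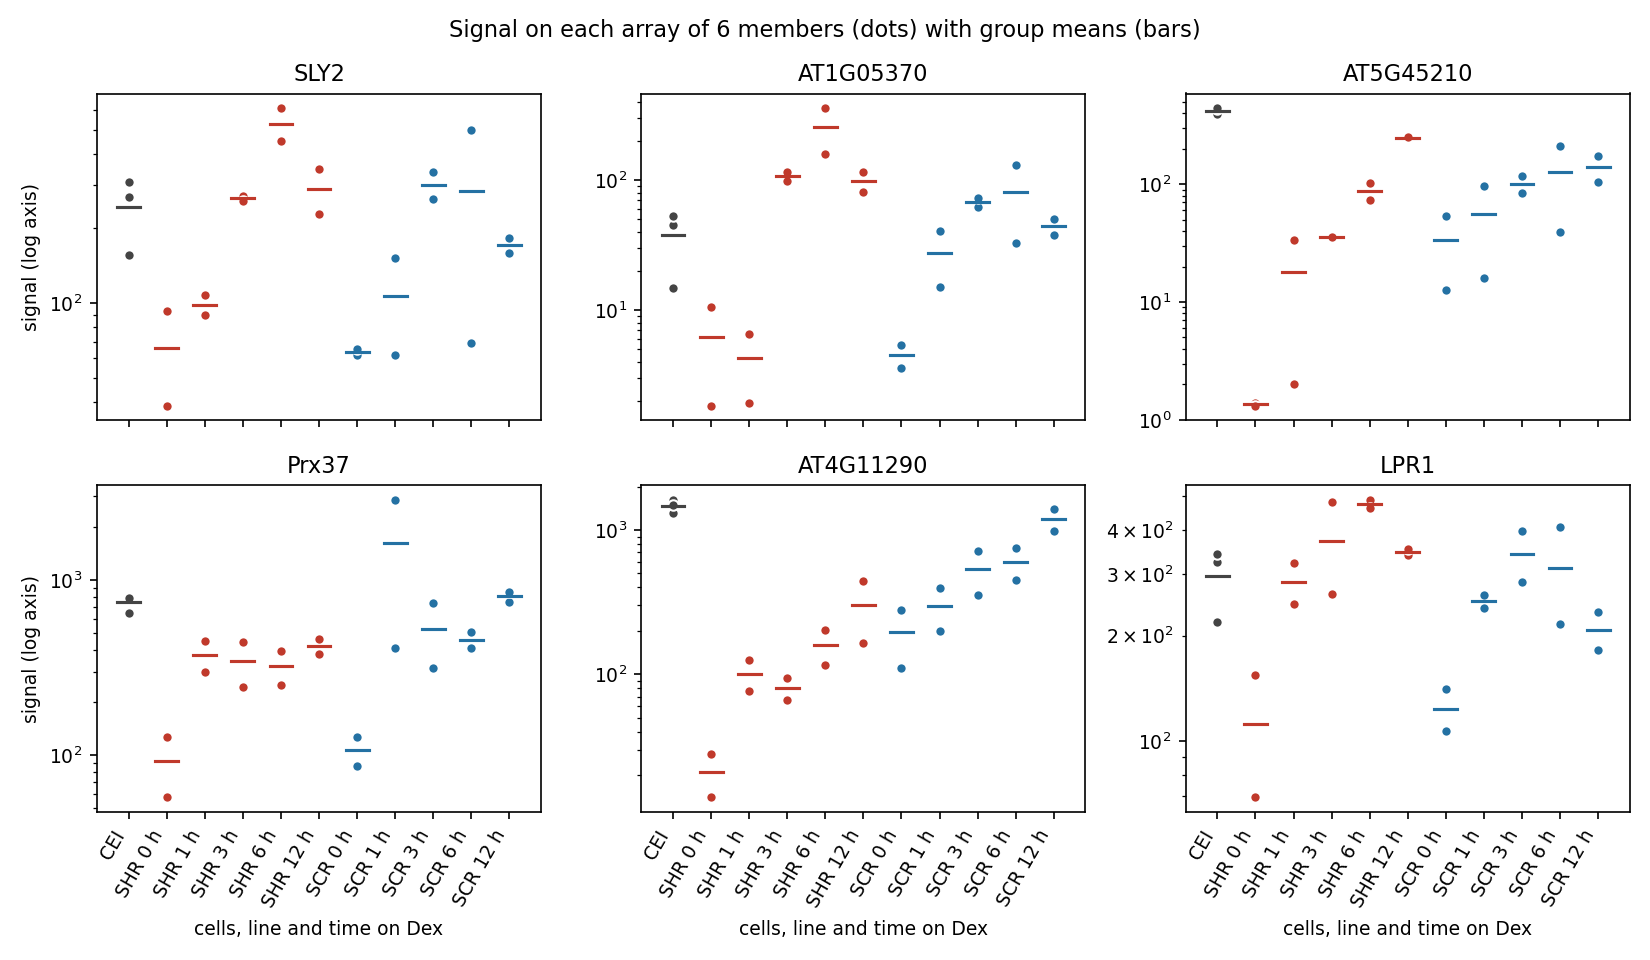
Signal on each array (dots, log axis) and group mean (bars) for SLY2, AT1G05370, AT5G45210, Prx37, AT4G11290 and LPR1, in CEI cells (3 arrays) and in the SHR and SCR lines at 0, 1, 3, 6 and 12 h (2 arrays each). The SLY2 arrays of 3 h lie at 259 to 271 in the SHR line, with 263 to 338 in the SCR line, above all 0 h arrays. The mean of AT4G11290 is highest in CEI cells, whose arrays lie at 1318 to 1611, and the first SCR 12 h array, at 1392, lies within that range.

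Class III peroxidases, secreted haem enzymes that use hydrogen peroxide to cross-link or loosen wall components, made up 4 of the 18 named transcripts. The family held 39 of the 15983 tested probe sets, and 55.4% of all tested named 1 gene. The family was picked after the values were seen, so nothing is read from the count. Prx37 (AT4G08770) had 127 and 57.4 at 0 h, 449 and 297 at 1 h, 443 and 245 at 3 h, 394 and 249.8 at 6 h, and 461 and 378 at 12 h in the SHR line. Its SCR arrays had 127 and 87.1 at 0 h, 408 and 2851 at 1 h, 739 and 314 at 3 h, 406 and 501 at 6 h, and 751 and 857 at 12 h. Every array from 1 h on was above both 0 h arrays in both lines, and 1 array of the SCR line at 1 h was far above all others. Its neighbour on chromosome 4, AT4G08780, encodes a near-identical peroxidase, so part of the signal of either could come from the other. The smallest of the 4 differences was 1.75 for Prx37 and 0.35 for AT4G08780.

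AT4G11290 had 28.0 and 14.1 at 0 h, 126 and 76.3 at 1 h, 94.1 and 66.9 at 3 h, 203 and 115 at 6 h, and 441 and 166 at 12 h in the SHR line. Its SCR values were 280.4 and 109.9 at 0 h, 398 and 199 at 1 h, 719.8 and 355 at 3 h, 749.6 and 454 at 6 h, and 1392 and 992 at 12 h. The mean was highest at 12 h in both lines, and at each of the 5 times both SHR arrays lay below both SCR arrays. AT3G21770 had its highest mean in the SHR line at 1 h, with 857 and 515, and its later differences were 1.14 at 6 h and 1.19 at 12 h. In the SCR line its highest mean was at 6 h, with 605 and 349, and the differences were 1.84 and 1.54. AT1G44970 had 175 and 374 at 12 h, against 192 and 43.0 at 0 h, in the SHR line, where the arrays overlap. It had 489.9 and 408 at 12 h, against 367 and 192 at 0 h, in the SCR line, where they do not.

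The peroxidases were then looked at as a family, on a list drawn up after the values were seen and therefore not tested. Of 73 class III peroxidase loci 55 were named and 39 tested. The median difference from 0 h of the 39 at 1, 3, 6 and 12 h was 1.02, 0.44, 0.31 and -0.04 in the SHR line. The SCR medians were -0.01, -0.18, 0.18 and 0.03. All 4 differences at 6 h and 12 h were above 0 for 12 of the 39, the 4 members among them, where the background over tested probe sets was 8.28%, and below 0 for 4. The family median was thus highest at 1 h in the SHR line and close to 0 at 12 h in both lines. In CEI cells 5 of the 39 were higher and 16 lower than on the 1 h and 3 h arrays, where 25.7% and 19.4% of tested probe sets were. Related wall and oxidase genes among the 37 were AT2G21100, which encodes a dirigent-like protein, and LPR1, a multicopper oxidase that takes part in the arrest of root growth on low phosphate. LPR1 had 155 and 69.2 at 0 h, 322 and 247 at 1 h, 482 and 263 at 3 h, 487 and 461 at 6 h, and 339 and 353 at 12 h in the SHR line. Its SCR arrays had 141 and 107 at 0 h, 239.9 and 262 at 1 h, 284 and 398 at 3 h, 216 and 408 at 6 h, and 233 and 182 at 12 h. All arrays from 1 h on were above the 0 h arrays of their line. AT2G21100 had 127 and 226 at 12 h, against 179 and 39.8 at 0 h, in the SHR line, which overlap, and its difference at 1 h was 0.08 in the SHR line, with 0.18 in the SCR line.

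A pair of secreted-protease genes was among the 37. SCPL45 encodes a serine carboxypeptidase-like protein and was at 496 and 304 at 0 h, 1932 and 1080.5 at 1 h, 1603 and 757 at 3 h, 1465 and 1290.4 at 6 h, and 1404 and 1279 at 12 h in the SHR line. The SCR line was at 536 and 395 at 0 h, 931 and 855 at 1 h, 1080.5 and 1509 at 3 h, 818 and 1491 at 6 h, and 1312 and 1065 at 12 h. Its level was already high at 1 h in both lines and stayed above 0 h on all later arrays. AT1G30600 encodes a subtilase, a serine protease, and had another course. In the SHR line it had 102 and 96.8 at 0 h, 128 and 98.9 at 1 h, 355 and 266 at 3 h, 422 and 338 at 6 h, and 552 and 502 at 12 h. Its SCR arrays had 97.3 and 106 at 0 h, 104 and 216 at 1 h, 268 and 399 at 3 h, 76.2 and 528 at 6 h, and 248 and 237 at 12 h. The 1 h arrays were near 0 h in the SHR line, and the first SCR 6 h array was below both 0 h arrays.

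AT1G05370 encodes a Sec14-like protein, of a family that transfers phosphatidylinositol between membranes. Its signal was low at first, with 10.5 and 1.83 at 0 h and 6.59 and 1.91 at 1 h in the SHR line, and then reached 116 and 98.9 at 3 h, 358 and 159.9 at 6 h, and 81.5 and 117 at 12 h. In the SCR line it was 5.42 and 3.60 at 0 h, 14.9 and 40.3 at 1 h, 62.5 and 72.9 at 3 h, 33.0 and 131 at 6 h, and 38.0 and 50.3 at 12 h. All later arrays from 3 h on stood above every 0 h array. At such low levels the added constant of 10 makes the log2 difference smaller than the ratio of the signals. AT5G45210, of the TIR class of plant immune receptors, also began low in the SHR line, with 1.40 and 1.32 at 0 h, 33.8 and 2.00 at 1 h, 35.3 and 35.7 at 3 h, 102 and 72.8 at 6 h, and 246 and 250.3 at 12 h. In the SCR line it had 54.0 and 12.7 at 0 h, 15.9 and 96.2 at 1 h, 83.7 and 118 at 3 h, 39.1 and 212 at 6 h, and 174 and 105 at 12 h. Its difference at 12 h, 4.51 in the SHR line, was the largest among the 37 transcripts in either line, against 1.93 in the SCR line.

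AT1G72900, which encodes another protein with a TIR domain, showed wide replicate spread. It had 162 and 68.9 at 12 h, against 119 and 26.0 at 0 h, in the SHR line, which overlap, and 269.8 and 498 at 12 h, against 185 and 97.3 at 0 h, in the SCR line. AT4G25390, a protein kinase gene, had 1288 and 581 at 12 h, against 368 and 422 at 0 h, in the SHR line, and 1381 and 1538 at 12 h, against 740.1 and 487 at 0 h, in the SCR line. Its arrays of the 2 times did not overlap in either line. AT4G16447 had 50.2 and 99.3 at 12 h, against 25.6 and 2.69 at 0 h, in the SHR line, and 100.3 and 55.4 at 12 h, against 29.3 and 2.46 at 0 h, in the SCR line. AT5G28010, of the major latex protein family, had 54.5 and 45.7 at 12 h, against 24.7 and 5.47 at 0 h, in the SHR line, and 43.8 and 85.4 at 12 h, against 38.5 and 7.87 at 0 h, in the SCR line. Both transcripts had the 12 h arrays of each line above its 0 h arrays, with a first 0 h array well above the second.

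The 19 probe sets not listed in the annotation had smallest differences between 0.72 for 251035_at and 1.67 for 248619_at. Only a few are described, picked after their values were seen. The highest difference at 12 h in the SCR line, 3.24 for 252746_at, rested on 1 array, with 55.7 and 661 at 12 h, against 1.99 and 31.3 at 0 h. In the SHR line the highest 12 h difference among the 19 was 3.51 for 264577_at, with 1218 and 586 at 12 h, against 163 and 22.5 at 0 h. Its SCR arrays had 3024 and 1703 at 12 h, against 1491 and 463 at 0 h, a difference of 1.44, and did not overlap. The probe set 255443_at, which met the rule under every left-out array, had 329.5 and 116 at 12 h, against 77.2 and 47.3 at 0 h, in the SHR line, and 774 and 819.7 at 12 h, against 227 and 70.5 at 0 h, in the SCR line.

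The arrays of 1 h and 3 h took no part in the selection, but their differences from 0 h share the 0 h arrays with it and are given as description. The median difference of the 37 was 1.08 at 1 h and 1.54 at 3 h in the SHR line, with 0.75 and 1.06 in the SCR line, where all tested probe sets had medians of -0.13 and -0.06 at 1 h. At 1 h 28 of the 37 had a difference of at least 0.7 in the SHR line (13.6% of tested probe sets), 20 in the SCR line (6.86%) and 18 in both (3.06%). At 3 h it was 33 in the SHR line (5.36%), 27 in the SCR line (3.84%) and 25 in both (0.932%). In 13 it held at 1 h and 3 h in both lines (0.501%), Prx37 and SCPL45 among them. For 7 it held in neither line at 1 h, as for 82.6% of tested probe sets. For 3 it held in both lines at 3 h but in neither at 1 h (0.125%): SLY2, AT1G30600 and 246550_at. At neither 1 h nor 3 h did it hold for 5 in the SCR line (91.4%), which were AT1G44970, AT2G21100, AT2G14900, 262730_at and 260143_at, and for 2 in the SHR line (84.4%), AT2G21100 and 259863_at. The 12 h mean was above the 6 h mean for 18 of the 37 in the SHR line (53.2%) and for 24 in the SCR line (51.5%), near the background. The change from 0 h was larger in the SHR line for 24 of the 37 at 6 h (53%) and for 19 at 12 h (55.6%). Both 12 h arrays lay below both 6 h arrays for 9 of the 37 in the SHR line (15%), SLY2, SOL1, AT1G05370, AT1G05710 and LPR1 among them, and for 1, 247868_at, in the SCR line (13.7%). Both lay above for 3 in the SHR line (19.3%), which were AT5G45210, AT1G30600 and 263836_at, and for 8 in the SCR line (11.1%).

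The step between 1 h and 3 h can be tested with means that do not use the 0 h arrays, which enter only the estimate of spread. No transcript of the 37, and none of the 15983 tested probe sets, passed an adjusted p of 0.05 in limma for 3 h minus 1 h in the SHR line (0% called) or in the SCR line (0%), or for the difference between the lines in that step (0%). At an unadjusted p under 0.05 there were 1297, 399 and 430 tested probe sets in these 3 comparisons, and 5, 2 and 1 of the 37. The median standard error of the step was 0.38 (log2), and the 2 arrays a group limit the precision. AT1G05370 had the largest step in the SHR line, 3.06 ± 0.55 (SE, adjusted p = 0.567), and 1.13 ± 0.55 in the SCR line (adjusted p = 1.00). For SLY2 it was 1.35 ± 0.61 in the SHR line, with 1.51 ± 0.61 in the SCR line, and for SOL1 0.96 ± 0.51 and 1.59 ± 0.51. For Prx37 it was -0.14 ± 0.62 in the SHR line, with -1.15 ± 0.62 in the SCR line.

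A split of the transcripts was noticed after the values were seen. In 9 of the 37 the second SCR 6 h array was at least 2-fold above the first (20.2% of tested probe sets): AT1G05370, AT5G45210, SLY2, SOL1, AT1G30600, 245576_at, 258599_at, 251890_at and 246550_at. All 9 had a positive 3 h minus 1 h step in both lines, from 0.96 to 3.06 with a median of 1.35 for the SHR line, and from 0.76 to 1.59 with a median of 1.06 for the SCR line. A positive step in both lines was also common among all tested probe sets with such a second array, at 77.8%, against 34.8% of all tested, and their median steps were 0.57 for the SHR line and 0.27 for the SCR line. In another 9, AT1G72900 and AT1G44970 among them, the first SCR 6 h array was at least 2-fold above the second (15.7%), and their median step was -0.42 in the SHR line, with -0.11 in the SCR line, as it was -0.44 and -0.11 for all tested probe sets with such a first array. The other 19, among them Prx37, SCPL45 and LPR1, were within 2-fold, with a median step of -0.19 for the SHR line and 0.21 for the SCR line. These groups were made from SCR 6 h arrays that the selection used, they carry no test, and the direction of the step is not particular to the 37.

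**Figure D3:**
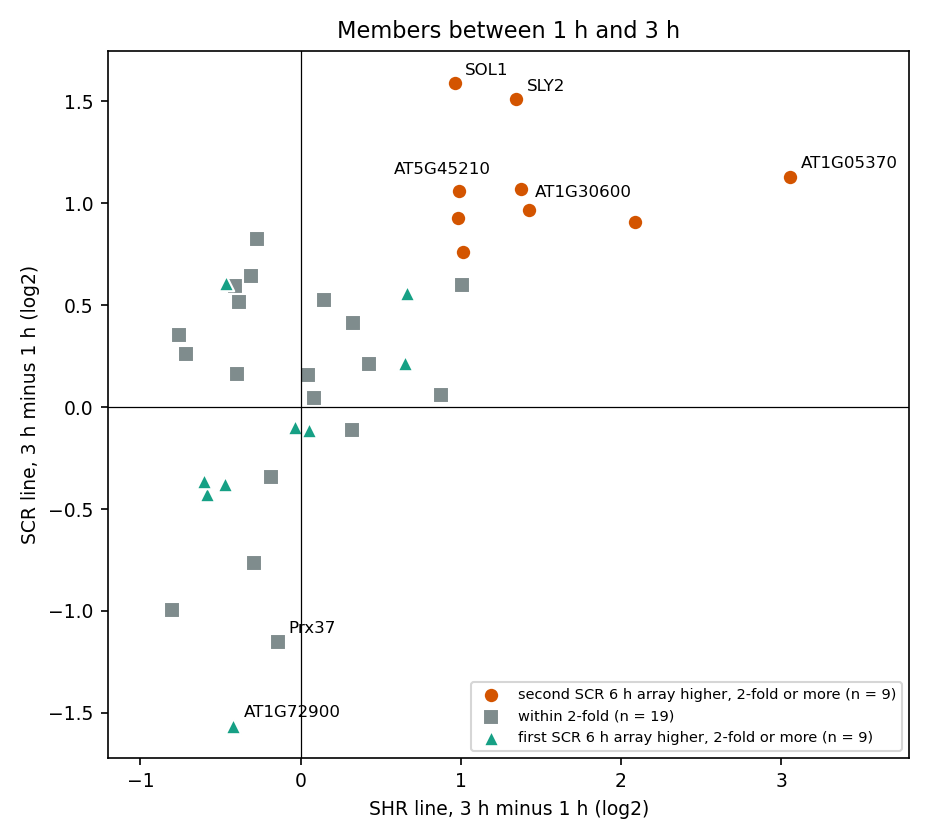
Difference between 3 h and 1 h of each of the 37 transcripts in the SHR line (x axis) and in the SCR line (y axis), log2(signal + 10), marked by how the 2 SCR 6 h arrays compared. The 9 transcripts with a higher second array (circles) lie at 0.96 or more on the x axis and 0.76 or more on the y axis; the other 28 (squares and triangles) scatter around 0, and among all tested probe sets with a higher second array 77.8% had a positive step in both lines.

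The lines themselves were compared over the 1 h and 3 h arrays. Of the 15983 tested probe sets 343 passed (2.15%), 201 higher (1.26%) and 142 lower (0.888%) in the SHR line, and 1 of the 37 did, AT4G11290. With the replicate number as a block 9 of the 37 passed, where 4.87% of tested probe sets did, AT3G21770 and 259008_at among the 9. The block takes the spread between the replicates of a line out of the error, and a comparison between lines needs that spread. The larger count is therefore not read as a result. AT4G11290 was lower in the SHR line, with 126, 76.3, 94.1 and 66.9 on its 1 h and 3 h arrays, against 398, 199, 719.8 and 355 in the SCR line, and the arrays do not overlap. The difference was -1.98 ± 0.36 (log2, SE, 4 arrays from 2 biological replicates per line, limma adjusted p = 0.00908). The fit took the 4 arrays as independent. The first replicate was above the second at 1 h and 3 h in both lines, so this standard error may be too small. The line difference was already present on the 0 h arrays, at -2.63. Without the block the next in order of adjusted p were 259008_at at -0.72 ± 0.20 (limma adjusted p = 0.0694) and AT3G21770 at 1.33 ± 0.37 (limma adjusted p = 0.0713). AT3G21770 had 857, 515, 959 and 261 in the SHR line, against 241, 185, 299 and 188 in the SCR line. For SLY2 the difference was -0.08 ± 0.43 and for AT1G05370 -0.37 ± 0.39, and neither passed with or without the block. At 12 h, as description, SLY2 had a change from 0 h that was 0.74 larger in the SHR line, AT5G45210 one that was 2.57 larger, and Prx37 one that was smaller in the SHR line, with a difference of -0.66.

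CEI cells were set against the mean of the 8 ground tissue arrays of 1 h and 3 h, of which none entered the selection. Of the 37, 18 passed (48.6%), 6 higher and 12 lower in CEI cells, where 45.1% of all tested probe sets passed, 25.7% higher and 19.4% lower. The share is close to the background, so nothing particular to the set is read from it, and the median difference was 0.19 for the 37 and 0.11 for all tested. The CEI arrays also differ from the others by medium and by the marker used for sorting, which cannot be told apart from the cell type.

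AT5G45210 was higher, at 391, 434 and 440.0 in CEI cells, against 2.00 to 118 on the 8 ground tissue arrays, by 3.12 ± 0.47 (log2, SE, limma adjusted p = 9.76e-05). AT4G11290 was at 1318, 1611 and 1496 in CEI cells, against 66.9 to 719.8, by 2.92 ± 0.35 (limma adjusted p = 1.15e-05), while more of the 39 tested peroxidases were lower than higher. Both AT5G45210 and AT4G11290 had all 3 CEI arrays above all 8 others, as had 5 of the 37 in all (18% of tested probe sets). AT1G30600 was at 575, 603 and 601 in CEI cells, against 98.9 to 399, by 1.49 ± 0.36 (limma adjusted p = 0.0035). AT3G21770 was at 823, 606 and 632 in CEI cells, against 185 to 959, by 0.90 ± 0.35 (limma adjusted p = 0.046), with overlapping arrays. This call was lost in 10 of 17 alternatives. Among probe sets not listed in the annotation, 262730_at had the largest positive difference, 3.35 ± 0.40 (limma adjusted p = 1.16e-05). It was at 261, 296 and 306 in CEI cells, against 2.75 to 38.8. The probe set 264577_at was higher by 2.00 ± 0.56 (limma adjusted p = 0.00821).

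AT1G72900 was lower in CEI cells, at 21.5, 6.65 and 19.9, against 81.7 to 991 in the ground tissue, with a difference of -3.31 ± 0.50 (limma adjusted p = 0.0001). AT4G25390 was lower, at 359, 852 and 510.5 in CEI cells, against 475 to 1466, with a difference of -0.93 ± 0.31 (limma adjusted p = 0.0211), and the call was lost when the first or the third CEI array was left out. The other 10 lower transcripts were not listed in the annotation. The largest of these differences was that of 260143_at, at 97.6, 73.3 and 62.8 in CEI cells, against 325 to 2791, with a difference of -3.39 ± 0.40 (limma adjusted p = 9.63e-06). All 3 CEI arrays lay below all 8 others for 8 of the 37 (11.9%). Of the 9 transcripts with a higher second SCR 6 h array 2 were called higher and 0 lower, where 62.7% and 1.64% of tested probe sets with such a second array were. Of the 19 within 2-fold 3 were higher and 6 lower (19.4% and 20.8%), and of the 9 with a higher first array 1 was higher and 6 lower (3.46% and 36.9%). Among all tested probe sets, the called direction in CEI cells went with the difference between the SCR 6 h arrays. The selection used these arrays and the groups were made after the values were seen. Nothing particular to the 37 is read from these counts.

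The remaining named transcripts did not pass in CEI cells. SLY2 was at 307, 157 and 268 in CEI cells, against 61.8 to 338, a difference of 0.47 ± 0.41 (limma adjusted p = 0.371). LPR1 differed by -0.06 ± 0.26, AT1G05370 by -0.06 ± 0.37 and SOL1 by 0.26 ± 0.35. Prx37 differed by 0.55 ± 0.42, while its neighbour AT4G08780 was lower in CEI cells, with a difference of -2.28 ± 0.45 (limma adjusted p = 0.000843). Set beside the 12 h arrays, as description, the CEI mean was above that of both lines for 11 of the 37 (37.6%), it was below the 0 h mean of both lines for 10 (37.6%), and above it for 25 (43.6%). AT1G72900 and 260143_at were thus lower in CEI cells than in either line before induction. The summed marker signals of the cell types moved with this comparison in part: the cortex pair was between 345 and 592 in CEI cells and between 582 and 1536 on the 1 h and 3 h arrays, the endodermis pair between 526 and 688 against 368 to 1338, and the epidermis pair between 149 and 432 against 39.4 to 428. The part of these markers in the result was not tested.

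**Figure D4:**
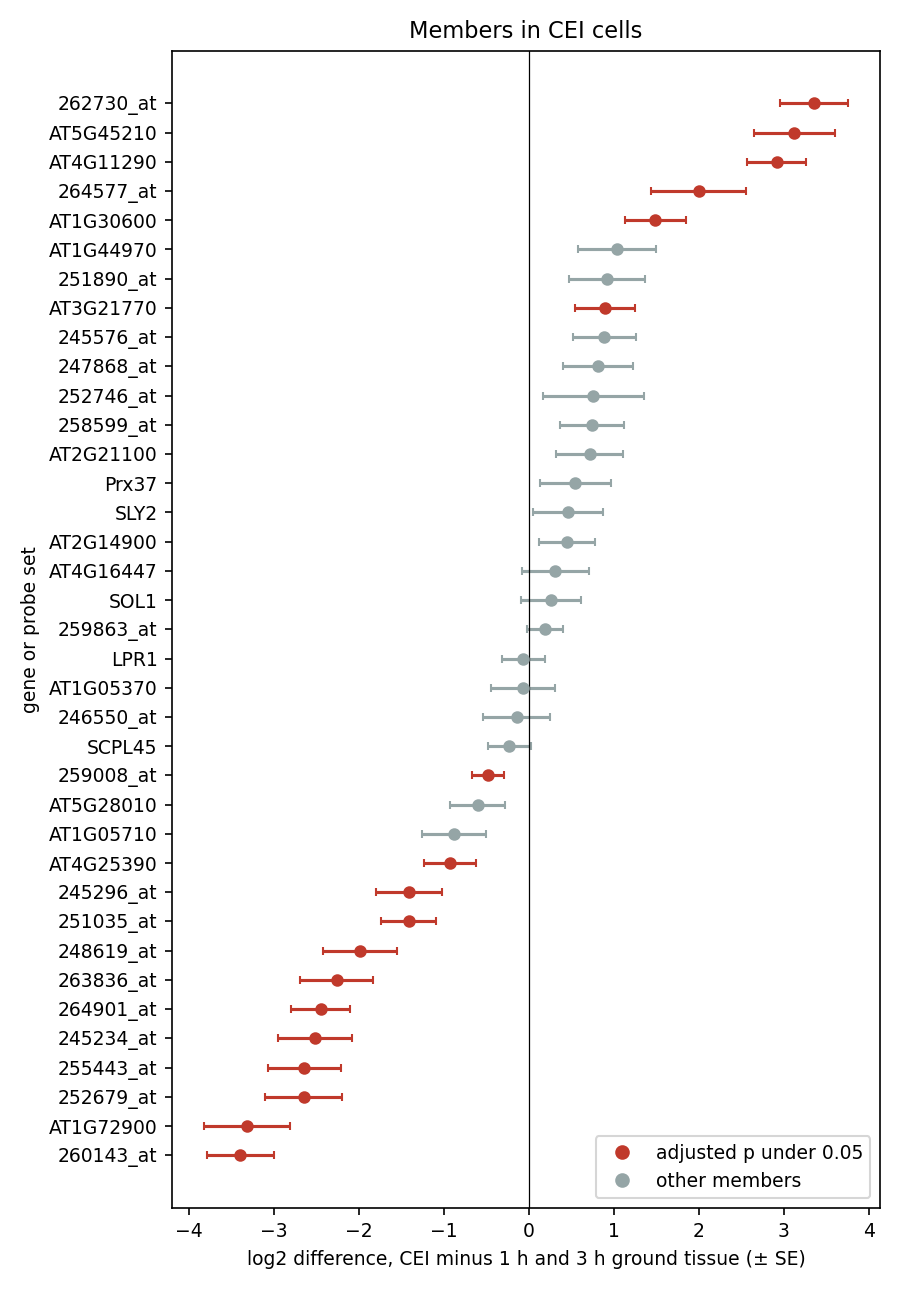
Difference of each of the 37 transcripts between CEI cells (3 arrays) and the 1 h and 3 h ground tissue arrays (8 arrays), log2(signal + 10), with bars of ± 1 standard error from limma and red points for an adjusted p under 0.05. From 262730_at at 3.35 to 260143_at at -3.39, 6 are higher and 12 lower.

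Other genes of the pathways were followed on lists of known loci. Of the 13 loci of the SHR and SCR pathway 5 were named and 4 tested, and 0 passed in any of the 5 tested comparisons. The comparisons of the step from 1 h to 3 h called 0% of all tested probe sets, that of the lines 2.15% and that of CEI cells 45.1%. With 4 tested loci, nothing is read from this for the pathway. JKD (JACKDAW), whose zinc finger product is a partner of both GRAS factors and restricts SHR movement, differed from 0 h by 0.77 at 12 h in the SHR line, with 0.16 in the SCR line. AT1G14580 (BLUEJAY), of the same family, differed at 6 h and 12 h by 0.88 and 0.14 in the SHR line, with 1.04 and 0.88 in the SCR line. AT5G41920 (SCL23), a GRAS protein close to SCR, differed at 6 h and 12 h by 0.78 and 0.50 in the SHR line, with 0.32 and 0.05 in the SCR line. SLY2 differed at 12 h by 2.04 in the SHR line, with 1.30 in the SCR line. Of 20 gibberellin loci 5 were named and tested. SLY1, the better known relative of SLY2, differed from 0 h at 12 h by -0.53 in the SHR line, with -0.60 in the SCR line, and the receptor genes GID1A, GID1B and GID1C differed by 0.68, 0.03 and -0.01 in the SHR line, with 0.00, 0.99 and 0.30 in the SCR line. GID1A and GID1B were lower in CEI cells, with differences of -0.61 ± 0.21 (limma adjusted p = 0.0288) and -1.67 ± 0.28 (limma adjusted p = 0.000259), and SLY1 and GID1C were not called.

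The named members lay on all 5 nuclear chromosomes, 7, 2, 2, 4 and 3 of the 18 on chromosomes 1 to 5. The 2 genes next to each in the RefSeq annotation were checked. Of these, 21 were named in the annotation of the probe sets and 0 were members. All 4 differences at 6 h and 12 h were above 0 for 5 of the 21, as for 8.28% of tested probe sets. The 5 were the neighbours of SLY2 (AT5G48175), Prx37, AT1G05710, SCPL45 and SOL1. The smallest of a neighbour's 4 differences was between 0.05 for AT3G22750, next to SOL1, and 0.38 for AT5G48175, so none of the 5 reached the limit of 0.7 in all 4.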

How the data were processed

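The authors deposited linear signal intensities, 1 per probe set and array, made with MAS5 per the submitters' processing notes; its version is not given in the sources used here, nor are detection calls. RNA was amplified in a second cycle before labelling, per the labels. From these intensities log2(signal + 10) was taken with no further normalization. Of 22810 probe sets 64 controls were left out, and the 15983 above the 40th percentile of their own array on at least 2 arrays were tested. The 11 groups of the 23 arrays were fitted together with limma 3.58.1 in R 4.3.3 (lmFit, then eBayes with trend), which left 12 residual degrees of freedom; p-values were two-sided and adjusted by Benjamini-Hochberg over all 15983 at a threshold of 0.05. The fit was also run on simulated data with independent noise. These lacked the correlation between same-numbered arrays, so no conclusion on the real arrays is drawn from that run. The means in the 5 comparisons come only from 1 h, 3 h and CEI arrays, while the spread is estimated from all 23 arrays. The median standard error was 0.26 for CEI cells, 0.38 for 3 h minus 1 h within a line, 0.54 for the line difference in that step and 0.27 for the lines (log2). Precision is limited by how few arrays each group has. The p-values measure spread between samples labelled as biological replicates. Same-numbered arrays of different times were taken as independent in the main fit.

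The 37 transcripts and all gene lists were chosen with earlier results of these data known. Every member with 1 gene in the annotation was named, and others by probe set where they came first in an order or were picked after their values were seen. Gene names came from the annotation given for the probe sets, which named 1 gene for 13513, several for 503 and did not list 8794, and were updated through RefSeq (TAIR10.1). The lists were SHR and SCR pathway, endodermis, cortex, stele, epidermis, root cap, cell division, DNA replication, gibberellin, touch, wound and stress, detoxification and circadian clock. Alternatives changed the pseudocount, filter, normalization, arrays in the fit and replicate block, and left out each array in turn.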

Additional observations from a re-analysis of the deposited data

How the results depend on the processing

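None of the 19 called differences of members (18 for CEI cells, 1 between the lines) changed sign under its alternatives; differences that were not called were not followed. With a pseudocount of 32, 22 probe sets met the rule, with all differences at 1.0 or more 17 did, and with quantile normalization 36 did, 34 of them among the 37. Both SCR 6 h arrays left out, a choice made after seeing the data, gave 61. When 1 array was left out at a time, between 27 and 80 probe sets met the rule, 80 without the first SHR 0 h array. Replicate numbers were shared by the groups, and deviations of same-numbered arrays correlated above 0.1 in 9 of 10 pairs of times in the SHR line (0.05 to 0.505, median 0.387) and in 8 of 10 in the SCR line (-0.222 to 0.576, median 0.236). Not every pair did, and the block was kept as an alternative. The count of members between the lines depended on this choice, and was 1 of the 37 without the block. With the replicate block, 779 probe sets and 9 of the 37 passed between the lines at 1 h and 3 h, AT4G11290 among them. The block leaves the spread between replicates out of the error, so it does not suit this comparison. It moved no other count of calls by over 1.5 times. Without 1 array the counts between the lines were 106 to 393, and 1 to 2 of the 37; without the first SHR 1 h array 106, without the second 192, without the second SHR 3 h array 217, without the first SCR 3 h array 142, without the second 169, and without the second SCR 1 h array 197. AT4G11290 kept its call in all 14 alternatives, with a highest adjusted p of 0.0499. For CEI cells the counts were 5438 to 7404, and 15 to 19 of the 37, and 7824 and 20 when the first SCR 6 h array, which enters only the spread, was left out of the fit. Of the 18 calls, those of AT3G21770 (10 of 17 alternatives), 259008_at (9) and AT4G25390 (2) were lost in some. For 3 h minus 1 h the counts were 0 to 10 in the SHR line, 10 without the first SHR 3 h array, 0 to 31 in the SCR line, and 0 to 4 for the line difference, 31 and 4 without the first SCR 1 h array; 0 of the 37 were called in any of these. The cause of these moves was not tested.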

Other observations

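The opposite pattern, a lower mean at 6 h and 12 h than at 0 h by at least 0.7 in both lines with a 0 h signal of at least 50, was met by 16 probe sets, of which 6 named 1 gene. Among them was AT1G62500, the cortex marker CO2. Its mean signal was 719.7 at 0 h, 82.0 at 6 h and 249 at 12 h in the SHR line, and 933 at 0 h, 43.5 at 6 h and 169.7 at 12 h in the SCR line. In CEI cells it was 235, and its difference from the 1 h and 3 h ground tissue arrays was 0.29 ± 0.44 (limma adjusted p = 0.619). AT1G26680 had a mean of 3.74 at 12 h, against 59.8 at 0 h, in the SHR line and 4.38 at 12 h, against 58.0 at 0 h, in the SCR line. Of the 16, 2 were higher and 6 lower in CEI cells, where 25.7% and 19.4% of tested probe sets were. These values chose the probe sets and carry no test against 0 h.

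The remaining lists held no member with a named gene. In CEI cells the cell division pair AUR1 and AUR2, Aurora kinases of mitosis, was higher than on the 1 h and 3 h arrays by 1.81 ± 0.31 and 2.03 ± 0.38, and the DNA replication pair PRL (an MCM helicase subunit) and ICU2 (a DNA polymerase alpha subunit) by 1.09 ± 0.31 and 1.13 ± 0.25. The stress transcripts STZ and WRKY53 were lower, with differences of -3.32 ± 0.31 and -2.70 ± 0.44, as were GSTU25 of the detoxification list (-2.71 ± 0.27) and GI of the clock list (-1.47 ± 0.18). All 8 passed an adjusted p of 0.05 in limma, as did 45.1% of all tested probe sets (25.7% higher, 19.4% lower). They are the loci that the annotation named: 2 of 11 for cell division, 2 of 9 for DNA replication and 2 of 11 for stress. For detoxification it was 1 of 9 and for the clock 1 of 10, so the lists as a whole were not measured. Of the cortex pair AT1G09750 was lower (limma adjusted p = 0.00695), and of the endodermis and epidermis pairs 0 were called. No gene of any list passed between 1 h and 3 h in either line, where 0% of all 15983 tested probe sets did, so nothing is read from this for the lists.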
